A study of Mus musculus with 4 samples.

Results

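The proteasome genes described here are the rows of the deposited tables whose symbols start with *Psma*, *Psmb*, *Psmc*, *Psmd* or *Psme*. A row was kept if it had at least 5 unique molecular identifiers (UMIs, each standing for 1 captured mRNA molecule) summed over the wells with at least 2000 UMIs on genes. Of 24378 gene rows, 45 matched by name and 43 were kept, with 4561 UMIs in all. The other 2, *Psma8* and *Psmb11*, had 0 UMIs in the kept wells. *Psmc3ip*, which matches by name but encodes a meiotic recombination factor and no proteasome subunit, had 17 UMIs and was left out of all sums. The 5 immunoproteasome genes *Psmb8*, *Psmb9*, *Psmb10*, *Psme1* and *Psme2* are given apart from the 37 other proteasome genes, called constitutive here.

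The study sorted basal cells of the interfollicular epidermis from the dorsal skin of 2 female *Ivl-CreERT2*/*R26-tdTomato* mice, 57 days old, and read their mRNA cell by cell. All mice had received tamoxifen intraperitoneally at 10 μg/g 2 days earlier, as the labels state it, while the methods of the study name a higher dose. In these mice the *Ivl* (involucrin) promoter drives a tamoxifen-dependent Cre recombinase that switches on the red protein tdTomato, so Tom+ cells are those in which the *Ivl* promoter was active, with their descendants, and Tom- cells are the unlabelled remainder of the same gate (live, CD49f+, LY6A+, CD34-). There were 2 Tom+ and 2 Tom- libraries, each made on its own Fluidigm C1 chip of 96 wells, and no library from a mouse without Cre or without tamoxifen was analysed here. Cells were also split by *Krt10*, the keratin that marks the onset of differentiation. A cell was called Krt10 positive with at least 6 *Krt10* UMIs after thinning to 2000 UMIs.

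The proteasome is the main protease for ubiquitin-tagged proteins in the cytosol and nucleus. Its barrel-shaped core has outer alpha rings that gate the entrance and inner beta rings that carry the catalytic sites, and a regulatory particle of ATPases and non-ATPase subunits unfolds the substrate and removes the ubiquitin. Under interferon, and constantly in many immune cells, the catalytic subunits *Psmb5*, *Psmb6* and *Psmb7* are exchanged for *Psmb8*, *Psmb9* and *Psmb10*, and the PA28 activator (*Psme1*, *Psme2*) is raised, which changes the peptides available for MHC class I. The transcription factors Nfe2l1 and Nfe2l2 drive the constitutive subunits through antioxidant response elements.

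The promoters of *Psmb8*, *Psmb9*, *Psmb10*, *Psmb5* and *Psmb6* are shown, with *Psmb7* named only, because the comparison of the constitutive with the immunoproteasome form below rests on these exchange pairs. Each runs from 250 bases before to 50 bases after the start site, 5′ to 3′ on the strand of the gene, from RefSeq on GRCm38.p6. Capitals mark matches on either strand to TGACNNNGC (core of the antioxidant response element), TTCNNNGAA (core of the gamma-activated sequence), GAAANNGAA (core of the interferon-stimulated response element) or CCAAT (the CCAAT box, whose letters read ATTGG on the other strand).
Psmb8: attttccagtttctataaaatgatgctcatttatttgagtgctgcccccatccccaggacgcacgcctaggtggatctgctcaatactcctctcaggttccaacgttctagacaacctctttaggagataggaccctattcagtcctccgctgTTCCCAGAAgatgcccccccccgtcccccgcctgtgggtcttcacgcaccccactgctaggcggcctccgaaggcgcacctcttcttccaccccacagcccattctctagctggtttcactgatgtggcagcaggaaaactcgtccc
Psmb9: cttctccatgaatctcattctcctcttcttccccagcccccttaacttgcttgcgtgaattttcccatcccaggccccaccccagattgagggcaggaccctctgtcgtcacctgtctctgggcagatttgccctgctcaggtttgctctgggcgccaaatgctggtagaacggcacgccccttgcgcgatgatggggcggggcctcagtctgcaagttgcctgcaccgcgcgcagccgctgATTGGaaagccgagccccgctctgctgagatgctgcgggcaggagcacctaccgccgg
Psmb10: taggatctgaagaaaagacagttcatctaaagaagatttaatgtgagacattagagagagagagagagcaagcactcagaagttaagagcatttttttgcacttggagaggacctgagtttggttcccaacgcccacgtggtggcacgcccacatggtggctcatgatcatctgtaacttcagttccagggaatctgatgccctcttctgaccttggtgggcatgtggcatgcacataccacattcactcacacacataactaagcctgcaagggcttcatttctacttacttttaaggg
Psmb5: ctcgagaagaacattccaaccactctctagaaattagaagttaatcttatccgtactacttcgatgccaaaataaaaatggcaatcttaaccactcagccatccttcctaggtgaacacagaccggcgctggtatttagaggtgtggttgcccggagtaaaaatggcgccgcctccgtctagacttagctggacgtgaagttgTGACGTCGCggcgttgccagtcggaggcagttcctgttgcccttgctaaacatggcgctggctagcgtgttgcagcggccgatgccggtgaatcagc
Psmb6: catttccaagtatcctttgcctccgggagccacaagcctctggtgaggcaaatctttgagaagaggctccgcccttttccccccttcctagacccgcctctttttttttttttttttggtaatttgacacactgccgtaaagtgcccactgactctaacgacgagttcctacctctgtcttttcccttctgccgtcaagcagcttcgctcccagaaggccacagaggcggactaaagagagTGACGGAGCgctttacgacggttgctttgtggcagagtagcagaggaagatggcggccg
The windows lie at chr17:34197945-34198244 (plus strand) for *Psmb8*, chr17:34187281-34187580 (minus strand) for *Psmb9*, chr8:105938343-105938642 (minus strand) for *Psmb10*, chr14:54617946-54618245 (minus strand) for *Psmb5* and chr11:70525107-70525406 (plus strand) for *Psmb6*. Of the printed windows, those of *Psmb5* and *Psmb6* hold TGACNNNGC, with the first base 47 and 9 bases before the start site. That of *Psmb8* holds TTCNNNGAA, that of *Psmb9* holds CCAAT, and that of *Psmb10* holds none of the 4. The *Psmb9* window shares 275 of its 300 bases with that of *Tap1*, a peptide transporter gene read in the opposite direction. The table of promoters held 37 of the 43 kept genes with 40 windows. TGACNNNGC was in 6 of these 40 (15.0%), against 12.4% of all 32851 windows. TTCNNNGAA was in 2 of 40 (5.0%) against 8.30%, GAAANNGAA in 6 of 40 (15.0%) against 8.56% and CCAAT in 14 of 40 (35.0%) against 37.4%. The members with TGACNNNGC were *Psmb5*, *Psmb6*, *Psmc6*, *Psmd9*, *Psmd12* and *Psme4*, and of the 6 immunoproteasome windows none held it.

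The 161 wells kept as cells numbered 35 and 58 in the Tom+ and 20 and 48 in the Tom- libraries (replicates 1 and 2), with 157281, 305407, 81630 and 184578 gene UMIs. No well name was shared between libraries. *tdTomato* UMIs were found in 16 of 35 and 29 of 58 Tom+ cells and in 0 of 20 and 3 of 48 Tom- cells. All 7 basal marker genes were detected in each library. The suprabasal list (*Krt1*, *Krt10*, *Krtdap*, *Sbsn* and *Lor*) had 160 and 161 UMIs per 10000 gene UMIs in Tom+ and 37.4 and 19.6 in Tom-. Of this list, the terminal differentiation gene *Lor* had only 1 or 2 UMIs per library. Krt10-positive cells made up 71.4% and 63.8% of the Tom+ and 15.0% and 8.33% of the Tom- cells. The labels do not say which chip came from which mouse, so the spread between replicate libraries may be technical in part. Replicate libraries differed beyond counting noise (chi-square divided by its degrees of freedom, over members, 1.73 in Tom+ and 1.65 in Tom-), and none was a copy of another. Fewer cells and less RNA per cell cannot be told apart in sums, so shares of UMIs are given.

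Proteasome mRNAs were found in every kept cell. Constitutive genes held on average 0.518% of the gene UMIs of a cell (SD 0.196, n = 161 cells), or 24.7 UMIs, with a lowest cell at 0.138% and a highest at 1.14%. Immunoproteasome genes held 0.0796% (SD 0.0765), or 3.55 UMIs, and 29 of 161 cells had none of them. The 5′ chemistry counts each molecule by its start, so UMIs were compared between genes without division by length. *Psmb1*, a non-catalytic beta subunit, was the most abundant member with 316 UMIs in 72.0% of cells. *Psme2*, the beta chain of PA28, followed with 225 UMIs and *Psma3*, an alpha-ring subunit, with 209. The median member had 95 UMIs and was found in 36% of cells, so most members are seen in a minority of cells at this depth.

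Subunits that enter the particle in equal copies were not captured in equal numbers. In the alpha ring the 7 genes ranged from 113 UMIs (*Psma6*) to 209 (*Psma3*), a 1.85-fold range. In the beta ring they ranged from 92 (*Psmb4*) to 316 (*Psmb1*), 3.43-fold. The 6 ATPases ranged from 12 (*Psmc1*) to 133 (*Psmc3*), and *Psmc1*, whose protein is needed in every regulatory particle, was the least abundant of the constitutive genes. The 11 other regulatory subunits ranged from 45 (*Psmd3*) to 125 (*Psmd7*), and the chaperones that build the base (*Psmd5*, *Psmd9*, *Psmd10*) from 22 (*Psmd9*) to 52 (*Psmd10*). The activators *Psme3* and *Psme4*, which cap the core in the nucleus, had 33 and 17 UMIs. Of the immunoproteasome genes, *Psmb10* was lowest with 38 and *Psme2* highest. 

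The first comparison asks whether cells with an active *Ivl* promoter differ in proteasome mRNA from unlabelled cells of the same gate. Constitutive genes held a mean share of 0.513% and 0.573% per cell in the Tom+ libraries and 0.419% and 0.497% in the Tom- libraries. Both Tom+ libraries were above both Tom- libraries, with means of 0.543% ± 0.0424 and 0.458% ± 0.0556 (SD, n = 2 libraries each), a ratio of 1.19. The difference of 0.0848 percentage points was close to the gap between replicates, which was 0.0600 points in Tom+ and 0.0786 points in Tom-. With 2 libraries against 2, an exact two-sided permutation test cannot give a p below 0.333, so no p is given for the share. Within the run tags of the labels the difference was 0.0941 points for replicate 1 and 0.0755 points for replicate 2. Without the first Tom- library the difference was 0.0455 points. With mitochondrial and ribosomal rows out of the total, the libraries of the sorts overlapped.

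**Figure D1:**
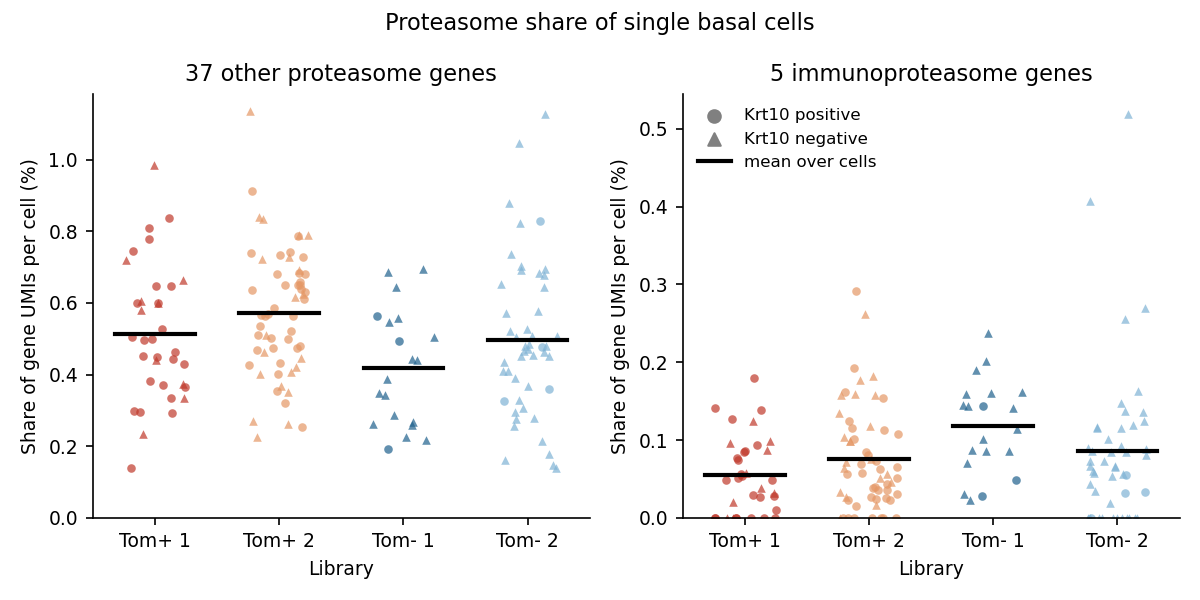
Share of gene UMIs per cell (percent, vertical axis) held by the 37 constitutive (left) and the 5 immunoproteasome genes (right) in the 4 libraries (horizontal axis), with 1 point per cell, circles for Krt10-positive and triangles for Krt10-negative cells, and a bar at the mean over cells. The cells of all libraries overlap widely, with constitutive means from 0.419% to 0.573% and immunoproteasome means from 0.0546% to 0.118%.

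The constitutive share rose with depth within each library, with Spearman's rho between the share and the gene UMIs of a cell from 0.281 to 0.472 over 20 to 58 cells. These cells share a library and the total is part of the share, so this is a description. The median depth was 4047 and 4524.5 UMIs in Tom+ and 3877 and 3225 in Tom- cells. After thinning every cell to 2000 UMIs the difference between the sorts was 0.108 points, with Tom+ higher. Thinning leaves the expected share of a cell unchanged, so this value cannot tell what part depth had. Per 100 ERCC spike-in UMIs, which each well receives in equal amount, Tom+ cells held 26.5 and 33.1 constitutive UMIs and Tom- cells 18.5 and 18.2. The total of gene UMIs per ERCC UMI was also higher in Tom+ (48.8 and 55.6) than in Tom- (41.5 and 35.7), so cell size or capture moved together with the group and its part in the difference was not tested.

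By role, the Tom+ libraries were above the Tom- libraries for the beta ring, the ATPases and the other regulatory subunits. The alpha ring summed to 13.3 and 16.6 UMIs per 10000 gene UMIs in Tom+ and 10.5 and 14.5 in Tom-, which overlap. The beta ring had 16.5 and 17.6 against 14.5 and 16.1. The ATPases, which unfold the substrate, had 7.12 and 8.64 against 6.37 and 5.80, a 1.3-fold ratio of the means. The other regulatory subunits had 14.1 and 14.1 against 10.9 and 12.1, a 1.22-fold ratio. The assembly chaperones had 1.84 and 1.47 against 0.613 and 1.63 and the activators 0.827 and 0.655 against 1.23 and 0.379, and both overlapped. These sums were given no test, as the genes were grouped with earlier results of these data known.

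**Figure D2:**
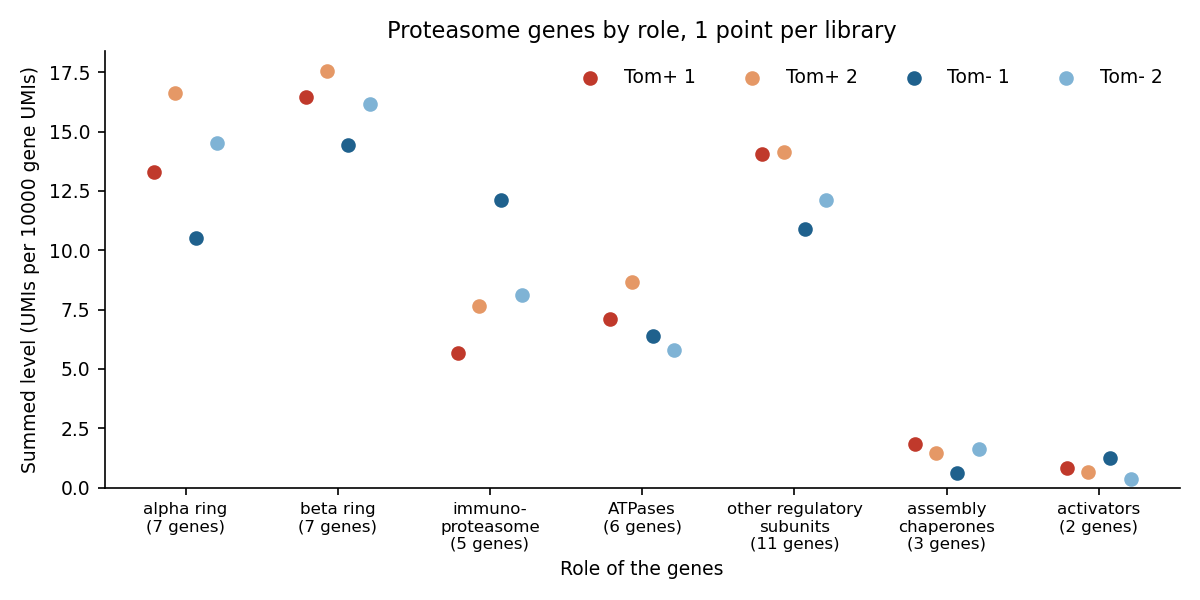
Summed level of the genes of each role (UMIs per 10000 gene UMIs, vertical axis) by role (horizontal axis), with 1 point per library. Immunoproteasome genes are the group in which both Tom- libraries (12.1 and 8.13) lie above both Tom+ libraries (5.66 and 7.66), while the ATPases and other regulatory subunits show the reverse order.

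Gene by gene, no member passed the test between Tom+ and Tom- cells. edgeR's quasi-likelihood test on UMIs summed per library could take 36 of the 43 kept members, since 7 fell under its filter on low counts, and with Benjamini-Hochberg adjustment it called 0 of the 36 at 0.05, against 38 of 3070 genes tested in all (1.24%). At an unadjusted p under 0.05 there were 2 members, *Psmc5* and *Psmd11* (5.56% of those tested, against 9.84% of all genes). With limma-voom 0 were called as well. DESeq2 also called 0, but it gave no adjusted p for some members and could not call those. Among the 5 largest and 5 smallest log2 fold changes these were *Psmb9*, *Psmb10*, *Psmc2*, *Psmc5*, *Psmd3* and *Psmd11*. The remaining members were not checked for a missing adjusted p, so more of them may lack one. At an unadjusted p under 0.05 DESeq2 had 0 members. The median log2 fold change was 0.24 over the 31 constitutive members tested, -0.60 over the 5 immunoproteasome members and -0.01 over all genes. The standard errors of the members ran from 0.31 to 0.76, and for 10 of 36 an interval of 2 SE on either side stayed within a 2-fold change, so for the remaining members these libraries leave a change of that size possible.

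By order alone, with no test, each Tom+ library exceeded each Tom- library for 14 of the 43 kept members (32.6%), and the reverse held for 4 (9.30%). Of all 9307 rows with at least 5 UMIs, 20.0% had the first order and 16.0% the second. The 14 were *Psma5*, *Psma7*, *Psmb1*, *Psmb3*, *Psmb7*, *Psmc2*, *Psmc4*, *Psmc5*, *Psmc6*, *Psmd3*, *Psmd5*, *Psmd7*, *Psmd11* and *Psme3*, and the 4 were *Psmb10*, *Psme1*, *Psme2* and *Psmc3ip*.

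Of the 5 members with the largest differences toward Tom+, 4 were regulatory subunits. *Psmd11*, a lid subunit that contacts the ATPase ring, had 1.53 and 1.64 UMIs per 10000 in Tom+ and 0.613 and 0.867 in Tom-, with a log2 fold change of 0.98 (SE 0.45, edgeR adjusted p = 0.459). *Psmc5*, an ATPase, had 1.53 and 2.16 against 0.980 and 0.921 (log2 fold change 0.95, SE 0.42, edgeR adjusted p = 0.449). *Psmc2*, also an ATPase, had 1.59 and 1.87 against 0.735 and 1.08 (0.82, SE 0.43, edgeR adjusted p = 0.576). In each of these the groups did not overlap. *Psmd3*, a lid subunit, had 0.827 and 0.688 against 0.490 and 0.379 (log2 fold change 0.78, SE 0.63) from 45 UMIs in all.

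*Psma7*, an alpha-ring subunit, was the other of the 5 and depended on which Tom- library was kept. It had 3.18 and 2.59 UMIs per 10000 in Tom+, 2.38 in the second Tom- library and 0.368 in the first, where only 3 UMIs were counted in 20 cells. The log2 fold change was 0.78 (SE 0.46, edgeR adjusted p = 0.651). Without the first Tom- library the log2 fold change was 0.16 (edgeR adjusted p = 0.981). Without the second it was 3.0 and passed the test (edgeR adjusted p = 0.00686), the 1 member called in that setting. *Psmd10*, a chaperone of the base, showed the same library apart, with 0.954 and 0.720 in Tom+, 0.813 in the second Tom- library and 0 UMIs in the first, where 0 counts allow up to 0.368 per 10000.

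The immunoproteasome genes had the opposite order. Their mean share per cell was 0.0546% and 0.0762% in Tom+ and 0.118% and 0.0859% in Tom- libraries, with means of 0.0654% ± 0.0153 and 0.102% ± 0.0226 (SD, n = 2 libraries each), a ratio of 0.642. Both Tom- libraries were above both Tom+ libraries, but the run tags differed in size, with differences of -0.0633 points for replicate 1 and -0.00971 points for replicate 2. The second Tom+ and the second Tom- library thus differed by less than the replicates of either sort. Without the first Tom- library the difference was -0.0205 points in place of -0.0365, and without the first Tom+ library -0.0257. With a minimum of 5000 UMIs per well the libraries of the sorts overlapped.

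*Psme1* and *Psme2* gave the larger part of this difference. *Psme2* had 2.61 and 2.75 UMIs per 10000 in Tom+ and 5.02 and 3.20 in Tom- (log2 fold change -0.60, SE 0.33, edgeR adjusted p = 0.616). *Psme1*, the alpha chain of PA28, had 1.78 and 1.51 against 3.19 and 2.06 (-0.67, SE 0.37, edgeR adjusted p = 0.606). The groups did not overlap for either chain. With *Psme1* and *Psme2* alone the difference in share was -0.0270 points, and with the 3 catalytic genes alone -0.00947 points with overlapping libraries, an alternative chosen after seeing the data.

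Among the catalytic genes of the immunoproteasome, *Psmb10* differed most and *Psmb8* hardly. *Psmb10*, which replaces *Psmb7*, had 0.0636 and 0.524 UMIs per 10000 in Tom+ and 1.10 and 0.650 in Tom- (log2 fold change -1.32, SE 0.76, edgeR adjusted p = 0.634). Its value in the first Tom+ library rests on 1 UMI. The log2 fold change was -0.63 without that library and -3.60 without the second Tom+ library. *Psmb9*, which replaces *Psmb6*, had 0.572 and 1.80 against 1.96 and 1.46 (-0.42, SE 0.47, edgeR adjusted p = 0.932), and the groups overlap. *Psmb8*, which replaces *Psmb5*, had 0.636 and 1.08 against 0.858 and 0.758 (0.12, SE 0.51, edgeR adjusted p = 0.988). Among the constitutive catalytic genes, *Psmb5* had 2.35 and 2.23 against 3.06 and 1.90, *Psmb6* 1.27 and 2.42 against 2.21 and 2.44 (log2 fold change -0.33, SE 0.38, edgeR adjusted p = 0.942) and *Psmb7* 2.29 and 2.39 against 1.72 and 2.06. Of these, only the libraries of *Psmb7* did not overlap. *Psmb5*, *Psmb6* and *Psmb7*, like *Psma5*, have named pseudogenes in RefSeq, whose reads the counting could split or merge.

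Counted as the share of the immunoproteasome form within its exchange pair, *Psmb9* was the form most often seen. *Psmb9* made up 31.0% and 42.6% of the UMIs of *Psmb6* and *Psmb9* in Tom+ and 47.1% and 37.5% in Tom-. *Psmb8* made up 21.3% and 32.7% of its pair with *Psmb5* in Tom+ and 21.9% and 28.6% in Tom-. Neither pair separated the sorts. *Psmb10* made up 2.70% (95% Clopper-Pearson interval 0.0684% to 14.2%) and 18.0% (10.6% to 27.5%) of its pair with *Psmb7* in Tom+ and 39.1% (19.7% to 61.5%) and 24.0% (13.1% to 38.2%) in Tom-. Here both Tom- libraries were higher, with a difference of -21.2 percentage points between the means (Tom+ minus Tom-) that ran from -28.9 (without the second Tom+ library) to -13.6 (without the first) with 1 library left out, while the intervals of the second libraries overlapped. With a minimum of 5000 UMIs per well the difference was -16.3 points and the libraries of the sorts overlapped. Between 23 and 129 UMIs stand behind each share, and the intervals cover counting error only.

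**Figure D3:**
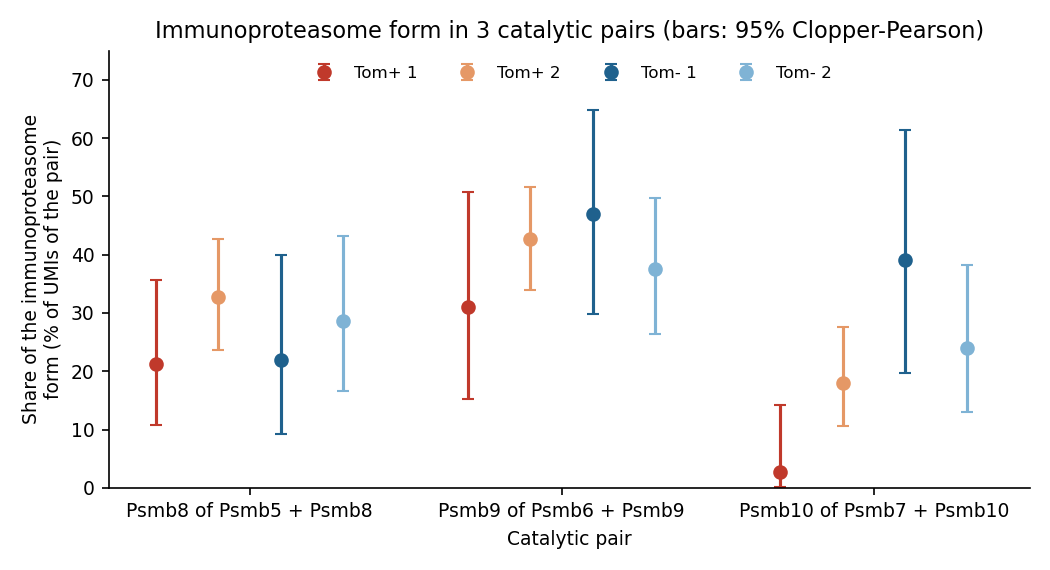
Share of the immunoproteasome form among the UMIs of each catalytic pair (percent, vertical axis) for 3 pairs (horizontal axis), with 1 point per library and bars for the 95% Clopper-Pearson interval. The intervals overlap in the pairs of *Psmb8* and *Psmb9*, and for *Psmb10* the first Tom+ library (2.70%) lies below the first Tom- library (39.1%).

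Markers of immune cells, which hold much immunoproteasome, were low in these libraries, and their part in the immunoproteasome values was measured by leaving cells out. Of the T-cell list, 9 of 10 genes were in the tables, with 0.127 and 2.23 UMIs per 10000 in Tom+ and 0 and 1.57 in Tom-. Of the Langerhans list, 8 of 8 were present, with 1.97 and 1.64 against 1.72 and 0.704, of which *Epcam*, also a gene of keratinocytes, gave 24 of 31 and 27 of 50 UMIs in Tom+ and 5 of 14 and 11 of 13 in Tom-. *Mfge8* was at 0 in all libraries, *Ptprc*, the common leukocyte antigen, and *Cd2* were at 0 outside the second Tom+ library, and the Langerhans gene *Cd207* had 1 UMI in each of 2 libraries. With the 5 cells left out that had at least 3 markers of T or Langerhans cells, the immunoproteasome difference was -0.0378 points. The cell with the highest immunoproteasome share, at 0.520% (13 of 2502 UMIs, second Tom- library), had no UMI of either list. Markers of hair follicle cells also differed between libraries. The infundibulum list had 4.32 and 17.4 UMIs per 10000 in Tom+ and 10.8 and 9.97 in Tom-, and 7 of 58 cells of the second Tom+ library had at least 3 of its genes. The bulge list had 0.127 and 1.67 in Tom+ and 2.33 and 2.00 in Tom-, from *Postn* and *Sox9*, with *Cd34* and *Lgr5* at 0 in all libraries. Both Tom- libraries were above both Tom+ libraries for the bulge list, as for the immunoproteasome. Taken singly, however, *Postn* and *Sox9* each overlapped between the sorts. Any part of follicle cells in the result was not tested.

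The number of cells with an immunoproteasome UMI depended on depth. After thinning to 2000 UMIs, at least 1 UMI of the 5 genes was found in 60% and 63.8% of Tom+ and in 90.0% and 66.7% of Tom- cells, and at full depth in 74.3% and 86.2% against 100% and 75%. No cell type that should lack these genes was present to set a background. Beyond counting noise, the immunoproteasome share varied between cells of the second libraries, where chi-square divided by its degrees of freedom was 3.19 in Tom+ and 3.50 in Tom-, against 1.65 and 1.16 in the first libraries. A few cells weigh heavily on the second libraries, with 30 of 10304 UMIs in Tom+ and 13 of 2502 and 9 of 2212 in Tom-. The median expected count per cell there was only 3.47 in Tom+ and 2.62 in Tom-. Values without these cells were not computed. The constitutive share varied by 2.33 to 2.96 in all 4.

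The second comparison asks whether the share moves with *Krt10*, within a library. The constitutive share did not move in a shared direction. Krt10-positive minus Krt10-negative cells differed by -0.0576 and 0.00921 points in Tom+ and by -0.00141 and 0.000832 points in Tom- libraries, a mean of -0.0122 ± 0.0306 (SD, n = 4 libraries). The sign of this mean turned under several settings, among them thinning (0.0382 points). The immunoproteasome share was lower in Krt10-positive cells in 4 of 4 libraries, by -0.00143 and -0.0369 points in Tom+ and by -0.0526 and -0.0610 points in Tom-, a mean of -0.0380 ± 0.0263 (SD, n = 4). This order in 4 of 4 libraries was lost in 7 settings, namely thinned cells, minimums of 1000 and 5000 UMIs, cut-offs of 1 and 12 UMIs, the top 5% of wells left out and the catalytic genes alone, while the mean stayed negative. For 4 paired differences an exact sign-flip test cannot go below 0.125. The Tom- values rest on 3 and 4 Krt10-positive cells with 16 and 4 immunoproteasome UMIs.

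**Figure D4:**
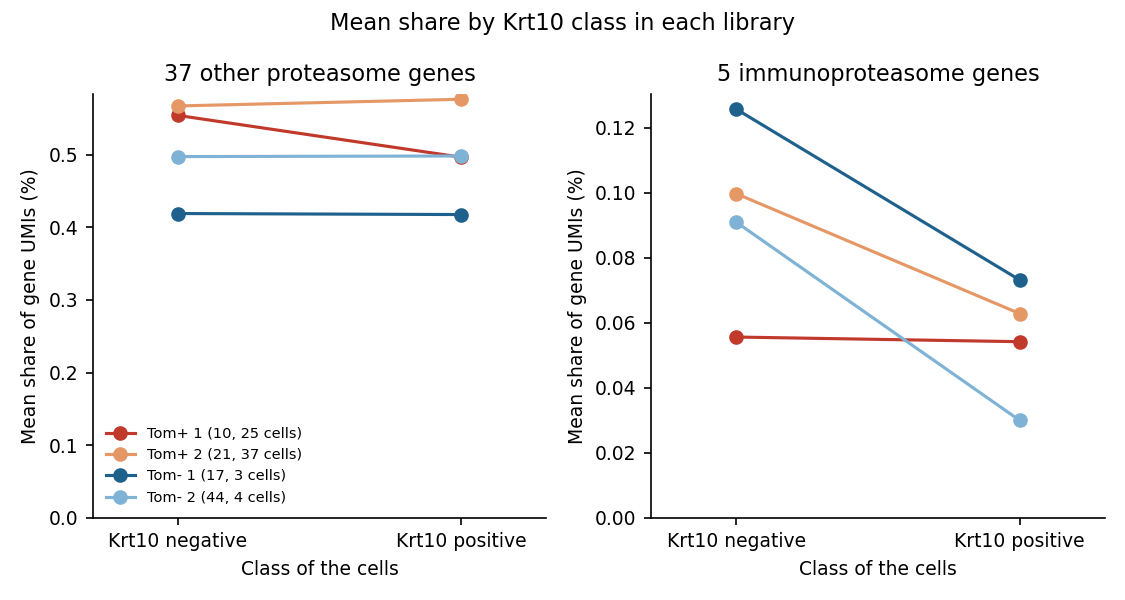
Mean share of gene UMIs per cell (percent, vertical axis) in Krt10-negative and Krt10-positive cells (horizontal axis), with 1 line per library, for constitutive (left) and immunoproteasome genes (right). All 4 lines fall on the right, from means of 0.0556% to 0.126% to means of 0.0300% to 0.0732%, while the lines on the left go in mixed directions.

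Among Krt10-negative cells alone, the order of the sorts was kept for the constitutive share but not for the immunoproteasome. Constitutive shares of Krt10-negative cells were 0.554% and 0.567% in Tom+ and 0.419% and 0.497% in Tom-. Immunoproteasome shares were 0.0556% and 0.0997% against 0.126% and 0.0910%, which overlap. Among Krt10-positive cells the shares overlapped for both sets, at 0.496% and 0.576% against 0.417% and 0.498% for the constitutive and 0.0542% and 0.0628% against 0.0732% and 0.0300% for the immunoproteasome genes.

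By role, the near-zero difference of the constitutive sum held parts that went in opposite directions. The 11 other regulatory subunits were higher as a sum in Krt10-positive cells in 4 of 4 libraries, with 14.4 against 13.4 and 14.9 against 12.5 UMIs per 10000 in Tom+ and 14.9 against 9.88 and 16.4 against 11.7 in Tom-, a mean difference of 3.25 ± 1.90 (SD, n = 4). Of these 11 genes, only *Psmd2* and *Psmd7* were higher in 4 of 4 libraries, and *Psmd1* was lower in 4 of 4. In the first Tom+ library *Psmd7* by itself (2.00 against 0.764) differed by more than the sum, so the order there rests on this gene. The 7 beta-ring genes were lower in 4 of 4, with 14.6 against 20.2 and 17.3 against 18.0 in Tom+ and 11.3 against 15.3 and 13.9 against 16.4 in Tom-, a mean difference of -3.20 ± 2.12. The alpha ring was higher in some libraries and lower in others (mean difference 1.09 ± 2.45), and so were the ATPases (-0.750 ± 1.56). These sums pool UMIs over cells and have no test. In Krt10-positive Tom- cells they rest on 25 and 26 UMIs for the other regulatory subunits and on 19 and 22 for the beta ring.

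edgeR on the 8 sums per library and class, with library in the model, could take 23 of the 43 kept members and called 0 of them at an adjusted p under 0.05, while it called 111 of 1166 genes tested (9.52%). At an unadjusted p under 0.05 there were 3 members, *Psma7*, *Psmd7* and *Psmb9* (13.0%, against 19% of all genes). DESeq2 called 0 members, and limma-voom called 2, *Psma7* and *Psmb9*. The median log2 fold change was -0.14 over the members tested and -0.04 over all genes, with standard errors of the members from 0.29 to 0.57. Without a test, 9 of the 43 kept members were lower in Krt10-positive cells in 4 of 4 libraries and 3 were higher. The 9 were *Psma4*, *Psmb1*, *Psmb3*, *Psmb5*, *Psmb9*, *Psmb10*, *Psmc3ip*, *Psmd1* and *Psme2b*, and the 3 were *Psma7*, *Psmd2* and *Psmd7*. Of all rows with at least 5 UMIs, 9.14% were lower and 5.15% higher in 4 of 4. Rows with 0 UMIs in both classes of a library are tied and count in neither direction. A 0 in a small Krt10-positive Tom- class against any UMI in the negative class counts as lower. *Psmb9*, *Psmb10*, *Psmc3ip* and *Psme2b* had 0 UMIs in the Krt10-positive cells of both Tom- libraries, and *Psma4* in those of the first.

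**Figure D5:**
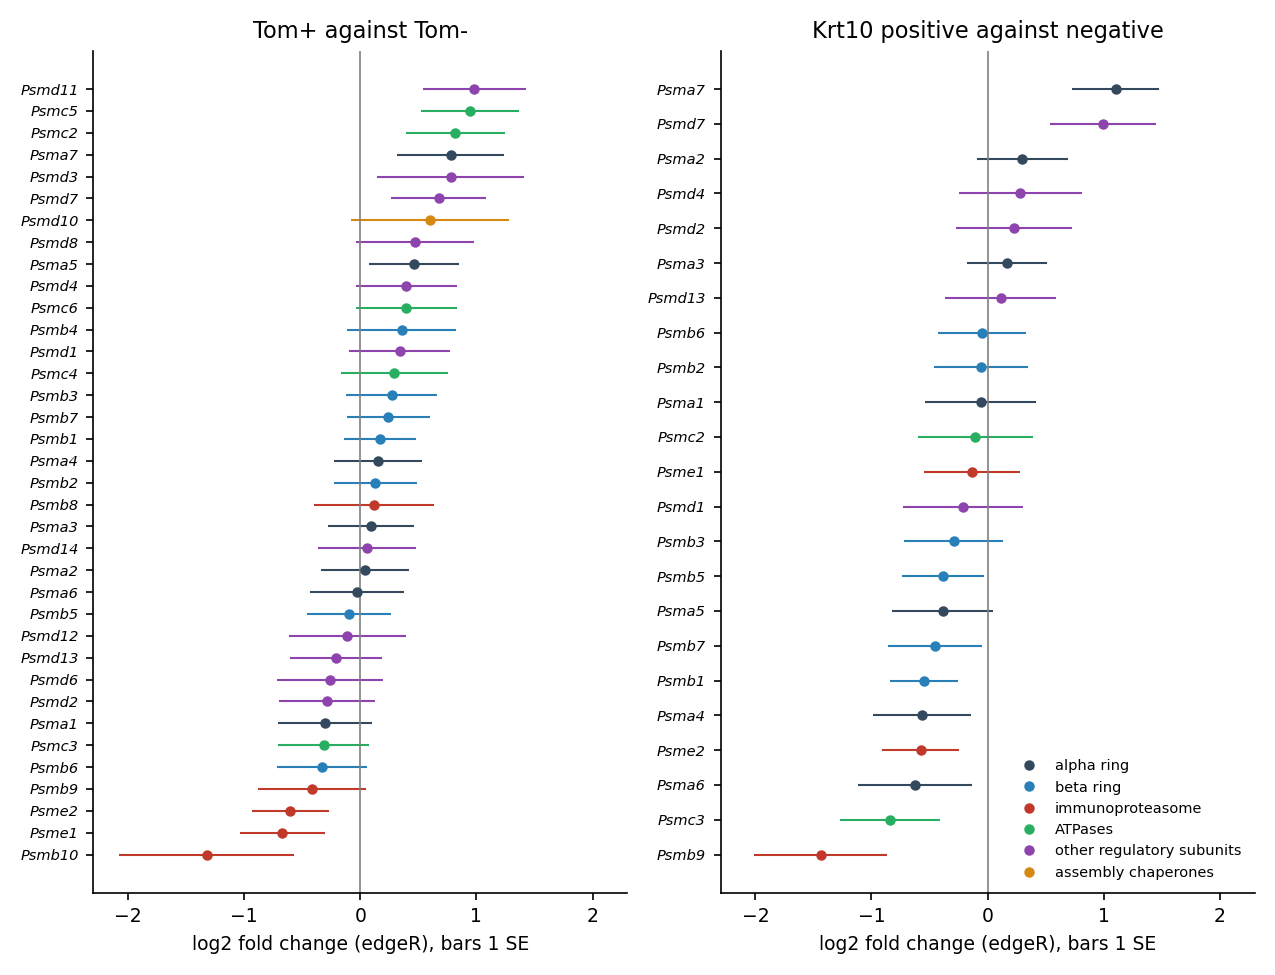
log2 fold change (horizontal axis) with a bar of 1 SE for each member tested by edgeR (vertical axis), coloured by role, for Tom+ against Tom- (36 members, left) and Krt10 positive against negative (23 members, right). None passes an adjusted p of 0.05, and on the left 4 of the 5 immunoproteasome genes (red) have negative values.

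*Psma7* and *Psmd7* had the largest differences toward Krt10-positive cells. *Psma7* had 4.00 against 1.53 and 3.15 against 1.29 UMIs per 10000 in Tom+ and 0.594 against 0.309 and 3.79 against 2.25 in Tom-, higher in 4 of 4 libraries (log2 fold change 1.10, SE 0.38, edgeR adjusted p = 0.0683). The first Tom- library gave only 1 and 2 UMIs. With limma-voom the adjusted p of *Psma7* was 0.0241, and with edgeR without the second Tom- library 0.0423. *Psmd7*, a lid subunit that pairs with the deubiquitinase *Psmd14*, had 2.00 against 0.764, 2.49 against 1.62, 1.19 against 0.926 and 3.79 against 1.07 (1.00, SE 0.46, edgeR adjusted p = 0.222). It too was higher in 4 of 4 libraries.

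The next members by size were close to 0. *Psma2*, of the alpha ring, had 1.72 against 1.15, 2.77 against 2.59, 4.16 against 1.54 and 1.26 against 2.13 (0.30, SE 0.39), and its sign changed under 4 settings. *Psmd4*, a ubiquitin receptor, had 1.53 against 0.764, 1.46 against 1.73, 2.38 against 1.08 and 0.631 against 0.889 (0.28, SE 0.53). *Psmd2*, a scaffold of the base, was higher in 4 of 4 libraries by small margins, with 1.53 against 1.34, 1.08 against 0.971, 1.78 against 1.23 and 1.89 against 1.48 (0.23, SE 0.50).

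*Psmb9* had the largest difference toward Krt10-negative cells. It had 0.477 against 0.764 and 1.36 against 2.81 UMIs per 10000 in Tom+, and in Tom- cells it was found in the Krt10-negative class alone, with 0 against 2.47 and 0 against 1.60 (log2 fold change -1.44, SE 0.57, edgeR adjusted p = 0.135). The 0 counts in the Krt10-positive Tom- cells allow up to 1.78 and 1.89 UMIs per 10000, so in the second library the difference was not detectable at this depth. Over both Tom- libraries, 0 of 32673 UMIs allow up to 0.918 per 10000, against 1.84 in the Krt10-negative cells. This limit pools the few cells of both libraries and covers counting error only. The error of the 1.84 is not in it, so no least fold is given. With limma-voom the adjusted p of *Psmb9* was 0.0199. *Psme2* had 2.38 against 3.05, 2.07 against 4.32, 6.54 against 4.63 and 1.26 against 3.38 (-0.58, SE 0.33, edgeR adjusted p = 0.391), lower in 3 of 4 libraries. *Psme1* was higher in both Tom+ and lower in both Tom- libraries (-0.14, SE 0.42).

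The constitutive genes with the next largest differences toward Krt10-negative cells were *Psmc3*, *Psma6*, *Psma4* and *Psmb1*. *Psmc3*, an ATPase, had 0.667 against 2.48 and 1.65 against 2.81 in Tom+ and 2.97 against 2.47 and 1.26 against 1.72 in Tom- (-0.84, SE 0.43, edgeR adjusted p = 0.302). *Psma6*, of the alpha ring, had 1.33 against 1.15, 1.41 against 2.37, 0.594 against 1.39 and 0.631 against 1.78 (-0.62, SE 0.49). *Psma4*, also of the alpha ring, was lower in 4 of 4 libraries, with 1.91 against 2.10, 1.97 against 2.59, 0 against 1.70 and 1.26 against 2.19 (-0.57, SE 0.42, edgeR adjusted p = 0.571). *Psmb1*, the most abundant member, was lower in 4 of 4 as well, with 3.15 against 6.49, 4.51 against 5.18, 2.38 against 3.86 and 3.79 against 4.15 (-0.55, SE 0.29, edgeR adjusted p = 0.332).

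Whether the *Krt10* difference itself depended on the sort was tested by an interaction term in the same fit. It called 0 of 23 members, and 2 of 1166 genes in all (0.172%), with standard errors of the members from 0.67 to 2.87 on the log2 scale, and for 0 of 23 an interval of 2 SE on either side stayed within 2-fold. At an unadjusted p under 0.05 there was 1 member, *Psmb9*, whose fitted value depends on the 0 counts above. DESeq2 and limma-voom called 0 members.

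Other genes of the pathway did not pass either test. Of 19 genes for assembly and regulation, 16 were in the tables and 7 could be tested between sorts, with 0 called and a median log2 fold change of -0.39, and 3 between *Krt10* classes, again with 0 called. *Shfm1*, which encodes a small lid subunit outside the name rule, had 7.25 and 7.73 UMIs per 10000 in Tom+ and 8.70 and 7.64 in Tom-, and *Pomp*, the chaperone of the core, 2.23 and 2.49 against 3.06 and 1.46. Of 15 genes for ubiquitin supply and delivery, 8 were tested between sorts and 4 between *Krt10* classes, with 0 called in either. *Nfe2l1* had 5.47 and 4.13 against 5.15 and 3.41 and *Nfe2l2* 1.02 and 0.95 against 1.23 and 0.867, with 0 of 2 called. The libraries of the sorts overlapped for *Shfm1*, *Pomp*, *Nfe2l1* and *Nfe2l2*.

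The list of antigen processing and interferon response had no gene past either test. Of 23 genes, 9 were tested between sorts, 0 were called, and 8 had negative values (1550 of 3070 over all genes), with a median log2 fold change of -0.37 against -0.01 over all genes. *B2m*, the light chain of MHC class I, had 29.0 and 40.7 UMIs per 10000 in Tom+ and 39.0 and 40.9 in Tom-, and *H2-K1*, a class I heavy chain, 12.7 and 10.6 against 16.8 and 12.8. Between *Krt10* classes 3 genes were tested, all with negative values, and the smallest adjusted p was 0.0931 (*B2m*, log2 fold change -0.44, SE 0.16, edgeR). *Tap1*, which shares its promoter window with *Psmb9*, had 1.08 and 0.917 against 2.33 and 1.08 between sorts. The interferon-induced genes *Ifit1*, *Ifit3* and *Isg15* had 0 UMIs in all 4 libraries.

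The 7 members outside the test between sorts were *Psmc1*, *Psmc3ip*, *Psmd5*, *Psmd9*, *Psme2b*, *Psme3* and *Psme4*, with 12 to 35 UMIs each. *Psme2b*, a near-copy of *Psme2* whose reads may be shared with it, had 30 UMIs and was counted among the constitutive genes by the rule of the sum, and without it the constitutive difference between sorts was 0.0832 points. *Psme3*, the nuclear activator, was higher in both Tom+ libraries (0.572 and 0.491 against 0.490 and 0.271), with 0.491 and 0.490 at the closest pair. *Psme4* was not ordered by sort, with 0.254 and 0.164 against 0.735 and 0.108.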

How the data were processed

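Cells were sorted as Tom+ or Tom- from dissociated dorsal epidermis and captured on 4 Fluidigm C1 chips, and mRNA was read from its 5′ end with unique molecular identifiers. The authors deposited 1 table per chip with the UMI count of each gene and well, not normalised, with spike-in and reporter rows beside the 24378 gene rows. The genome builds named in the submitters' processing notes are mm10 and GRCm38, and the aligner is not given in the sources used here.

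Of 384 wells, 169 had no gene UMI, 54 had fewer than 2000 and were left out, and 161 were kept as cells. Doublets were not called, and leaving out the 5% of wells with the most UMIs was an alternative. Depth was 81630 to 305407 gene UMIs per library. Intervals are 95% Clopper-Pearson intervals, the limit that 0 counts allow is 3 counts, and both cover counting error only. Groups came from the sorted population given in the labels. For *Krt10* classes, cells were thinned to 2000 UMIs with seed 1, and the cut-off of 6 UMIs follows the methods of the study. UMIs were summed per library, or per library and *Krt10* class with library in the model, and tested with edgeR 4.0.16 (quasi-likelihood, TMM, filterByExpr, R 4.3.3) with Benjamini-Hochberg adjustment over all genes tested and a threshold of 0.05. DESeq2 1.42.0 and limma 3.58.1 (voom) were alternatives. The code was tested on simulated data. The members, their roles and the lists of other genes were chosen with earlier results of these data known, so sums over members carry no p. Every kept member could be named, with values per library for the 5 largest and 5 smallest log2 fold changes of each comparison, the catalytic genes and the most and least abundant of each role. Of the members, 13 overlap another RefSeq gene, and reads there may be uncertain. Melanocyte, fibroblast and endothelial lists had 0 to 3 UMIs per library and the sebaceous list 1 to 7. The other alternatives were the minimum of UMIs per well, the *Krt10* cut-off, the denominator of the share, thinning, the low-count filter, cells with immune markers, the replicate block and each library left out in turn.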

Additional observations from a re-analysis of the deposited data

Results flagged for a closer look

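For *Psmb6*, *Psme1* and *Psmc2*, both Tom+ libraries moved one way between *Krt10* classes and both Tom- libraries the other. Values are differences in UMIs per 10000 gene UMIs, Krt10 positive minus negative, averaged over libraries. *Psmb6*, a constitutive catalytic subunit, had -0.234 in Tom+ and 0.530 in Tom-. *Psme1*, the alpha chain of PA28, had 0.275 in Tom+ and -1.32 in Tom-. *Psmc2*, an ATPase, had -0.693 in Tom+ and 1.07 in Tom-. The difference itself was tested with an interaction term and passed for none of the 3, with interactions of -0.39 (SE 0.80), 1.25 (SE 0.90) and -1.71 (SE 0.99) on the log2 scale and a lowest adjusted p of 0.924 over members (edgeR's quasi-likelihood test, Benjamini-Hochberg adjustment).

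Proteasome UMIs were also present in the 54 wells under 2000 gene UMIs, which no main comparison used. Constitutive genes held 0.313% of their 30056 gene UMIs and immunoproteasome genes 0.0333% (10 UMIs). No background level was measured for these wells.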

How the results depend on the processing

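By its mean, the constitutive share stayed higher in Tom+ (0.0455 without Tom- 1 to 0.124 points without Tom- 2) and the immunoproteasome share lower in Tom+ (-0.0525 to -0.00947) and in Krt10-positive cells (-0.0502 to -0.0130) under all alternatives run. The difference of the constitutive share between *Krt10* classes turned to 0.0541 points with a minimum of 5000 UMIs, 0.0382 thinned, 0.00662 with UMIs summed, 0.0571 with a cut-off of 12 and 0.0118 at the highest of 20 seeds, and ran from -0.0194 to 0.00288 with 1 library left out (the highest without Tom+ 1). The pair of *Psmb8* turned to -5.65 percentage points with a minimum of 5000 UMIs and ran from -3.95 (without Tom+ 2) to 7.45 with 1 library left out, and that of *Psmb9* from -11.2 to 0.356 (without Tom+ 1). Genes called between sorts numbered 8 with a minimum of 5000 UMIs, 116 with the replicate block and 27 to 65 with 1 library left out (65 without Tom- 1). The labels do not say what the run tags mark (correlation of deviations 0.131 over 3070 genes), and the replicate block left members called at 0 and the shares at 0.0848 and -0.0365. Genes called between *Krt10* classes numbered 20 and 58 with cut-offs of 1 and 3 UMIs, 52 and 29 with minimums of 1000 and 5000 UMIs, 49 thinned, and 59 (without Tom+ 1) to 125 with 1 library left out. Members called numbered 2 between classes with limma-voom (*Psma7*, *Psmb9*) and 0 to 1 in both comparisons with 1 library left out, the 1 being *Psma7* without Tom- 2 in each. Of 269 values for 20 named fold changes, 259 kept direction and side of the threshold, 6 reversed and 4 passed it. The log2 fold change of *Psma2* between classes reversed to -0.24 and -0.30 with cut-offs of 1 and 3 UMIs, -0.27 with a minimum of 1000 and -0.10 without the top 5% of wells. With 1 library left out, the fold change between sorts ran from -0.94 to 0.064 for *Psmb6* and from -1.58 to 0.13 for *Psmb9* (both highest without Tom+ 1). The interaction called 0 members in 16 alternatives. The cause of these changes was not tested. Where a sort was left with 1 library, that library was assumed to vary like the others. With 7 Krt10-positive Tom- cells and 12 to 316 UMIs per member, depth limits most single-gene comparisons.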
